A study of Oryza sativa with 2 samples.

Results

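Described here are 3 rice genes for WRKY transcription factors, a gene annotated as similar to WRKY transcription factor 45 (OS05G0322900), WRKY transcription factor 62 (OS09G0417800) and WRKY transcription factor 76 (OS09G0417600). These 3 genes of 76131 rows in the full expression table were chosen by identifier, with their difference between the libraries already known, so that difference is given as a description and without a test. The study sequenced strand-specific RNA libraries from leaves of 2-week-old rice seedlings, cultivar Ilmi, grown under normal conditions in soil. One library came from PGD1:Roc10 plants, which carry the homeodomain-leucine zipper factor Roc10 behind PGD1, called a whole-body promoter in the labels, and 1 library from nontransgenic plants (NT). The number of plants, and of transgenic events, behind each library is not stated in the labels. Levels are in FPKM, a fragment count scaled to transcript length and to the mapped fragments of the library. Each group has a single library, so differences cannot be set against a spread between plants and have no replicate check.

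WRKY factors are plant DNA-binding proteins that recognise the W-box element in the promoters of many defence genes, including those of other WRKY factors. In rice, WRKY45 is induced by salicylic acid and by the chemical defence activator benzothiadiazole, and it is needed for the disease resistance that benzothiadiazole gives, acting alongside the salicylate coactivator NPR1. WRKY62 has been placed downstream of WRKY45 in that pathway and is also known as a protein that binds the immune receptor XA21 and dampens resistance. WRKY76 is a close relative of WRKY62 and a transcriptional repressor whose overexpression lowered resistance to rice blast.

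The PGD1:Roc10 library held 21866514 mapped read pairs and the NT library 27683296, and alignment rates were 96.0% in PGD1:Roc10 and 96.7% in NT. Leaf markers fitted the label: 12 rows for Rubisco small subunit and chlorophyll a/b-binding proteins gave a total of 14857 FPKM in PGD1:Roc10 leaves, against 15664 FPKM in NT leaves. Of these 12 rows, 6 had a mean of 1 FPKM or more and 4 were listed at 0 in both libraries. The 23 pollen or anther rows and the 6 root rows were all below 1 FPKM in both libraries. Of 37 glutelin and prolamin rows, the seed storage list, 4 had a mean of 1 FPKM or more. Short RNA rows took 31.0% of the FPKM total in the PGD1:Roc10 library and 18.1% of that in NT, and their part in the differences below was not tested beyond the scalings given at the end. No row analysed here is named Roc10, so the level of the transgene was not analysed here.

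The WRKY45-like gene, on chromosome 5 from 14991578 to 14993673 (IRGSP-1.0, as deposited), stood at 249 FPKM in the PGD1:Roc10 library and 37.5 FPKM in the NT library. Its plain ratio, PGD1:Roc10 over NT, was 6.64. On the scale used for all counts here, log2(FPKM + 1), the difference was 2.70. WRKY76, on chromosome 9 from 14976196 to 14977729, stood at 91.9 FPKM in PGD1:Roc10 leaves and 10.3 FPKM in NT leaves, a plain ratio of 8.89 and a log2 difference of 3.04. WRKY62, on chromosome 9 from 14992942 to 14994888, had 33.1 FPKM in the PGD1:Roc10 library and 0.566 FPKM in the NT library. Its plain ratio was 58.4 and its log2 difference 4.44. All 3 genes were thus higher in the PGD1:Roc10 library, and the gene with the lowest level had the largest ratio. Of all 21875 rows with a mean of at least 1 FPKM over both libraries, called measured below, 2.29% had a value in PGD1:Roc10 at least 2-fold above that in NT. Another 1.29% were at least 2-fold lower. Since the genes were chosen for this contrast, nothing is read from that comparison. In RNA from whole leaves, more transcript per cell and more cells with the transcript cannot be told apart.

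**Figure D1:**
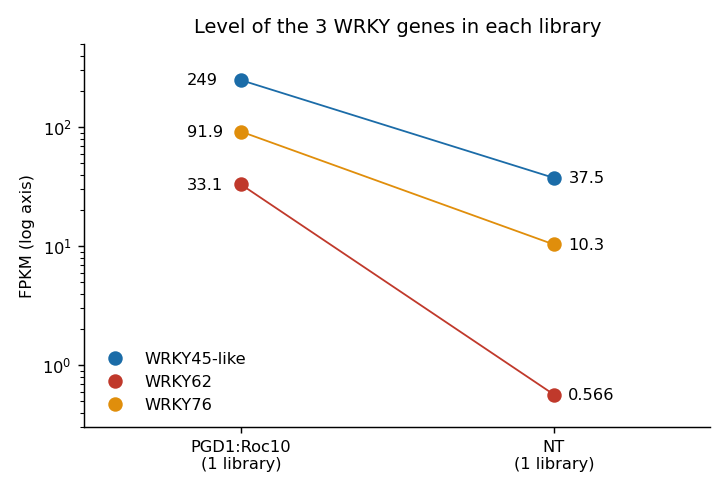
FPKM, on a log axis, of the WRKY45-like gene, WRKY62 and WRKY76 in the PGD1:Roc10 library and the NT library. Each point is 1 library and lines join values of the same gene. The order of the genes is the same in both libraries, and WRKY62 is the 1 gene that lies below 1 FPKM in NT.

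The order of the levels was WRKY45-like, WRKY76, WRKY62 in both libraries, but the distances between the genes differed. The WRKY45-like gene had 2.71 times the FPKM of WRKY76 in PGD1:Roc10 and 3.63 times in NT. WRKY76 in turn had 2.78 times the FPKM of WRKY62 in PGD1:Roc10 and 18.2 times in NT. FPKM is already per length, so levels can be compared between genes, but with 1 library per group the neighbours in this order have no spread to be judged by.

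Among all measured coding rows, the WRKY45-like gene reached or exceeded the level of 98.2% in PGD1:Roc10 and of 80.5% in NT. The same figures for WRKY76 were 92.9% in PGD1:Roc10 and 46.6% in NT. WRKY62 lay at 77.8% in PGD1:Roc10 and at 0.662% in NT, so in nontransgenic leaves it was among the least abundant rows that met the minimum, which it met through its PGD1:Roc10 value. Ordered by the log2 difference among 20702 measured coding rows, WRKY62 was number 17 from the top, WRKY76 number 45 and the WRKY45-like gene number 62. These ranks depend on the pseudocount added to FPKM: with 0.1 they were 32 for WRKY62, 111 for WRKY76 and 142 for the WRKY45-like gene, and with 5 they were 17, 21 and 23 in the same order.

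The authors' deposited table, made with Cuffdiff on 1 library per group, called the WRKY45-like gene and WRKY76 significant, each with p = 5e-05 and q = 0.0111. For WRKY62 the authors' deposited table gave p = 0.01445 and q = 0.770 and made no call. Among the 24683 rows tested in the authors' deposited table, 0.474% were called and higher in PGD1:Roc10. Calls were counted in a group of rows with higher NT values and a group with low NT values. Of 13 coding rows with an NT value at or above that of WRKY76 and a plain ratio of at least 4, the authors' deposited table called 12. Of 63 measured coding rows with an NT value above 0 but below 1 FPKM and a ratio at or above that of WRKY76, the authors' deposited table called 4. Both groups of rows were set after the values were seen, and their ratio limits differ. The 13 include WRKY76 and the WRKY45-like gene, and the 63 include WRKY62. The 63 met the minimum through their PGD1:Roc10 value. Why WRKY62 had no call was not tested.

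The remaining WRKY rows are set here beside all measured rows. The table holds 84 other rows annotated as WRKY, of which 49 were measured and 35 were not. Of the 49, 5 reached a 2-fold higher value in PGD1:Roc10 (10.2%, beside 2.29% of all measured rows) and 1 was at least 2-fold lower (2.04%, beside 1.29%). Of the 5, 3 had less than 1 FPKM in NT and met the minimum through their PGD1:Roc10 value, and with a minimum of 1 FPKM in NT the count was 2. The median difference of the 49 was 0.04, beside -0.01 for all measured rows, and 33 of them lay within 0.5 of no difference on the log2 scale. The share of all measured rows within 0.5 was not computed, so nothing is read from the 33. At 1.5-fold, 11 of the 49 were higher and 3 lower, beside 1122 higher and 856 lower of all 21875 measured rows. A larger share of the 49 than of all measured rows thus passed 1.5-fold, and some of the 11 had less than 1 FPKM in NT. Cuffdiff, in the authors' deposited table, called 0 of the 49 significant, which is near the shares over all tested rows. Those were 0.474% called and higher and 0.105% called and lower.

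In sums of FPKM, where the choice of the 3 genes fixes the direction, they reached 374 FPKM in PGD1:Roc10 leaves and 48.4 FPKM in NT leaves, a ratio of 7.72, whereas the other 49 measured WRKY rows summed to 1062 FPKM in the PGD1:Roc10 library and 1018 FPKM in the NT library, a ratio of 1.04. The 3 genes held 26.0% of the summed WRKY level in PGD1:Roc10 and 4.54% in NT. In PGD1:Roc10 the WRKY45-like gene had the highest level of the 52 measured WRKY rows, and in NT 8 others lay above it. WRKY76 was number 4 in PGD1:Roc10 and number 20 in NT, and WRKY62 number 12 in PGD1:Roc10 and number 49 in NT.

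The WRKY13-like gene OS01G0750100, next below the WRKY45-like gene in PGD1:Roc10, gave 172 FPKM in PGD1:Roc10 leaves and 160 FPKM in NT leaves. WRKY53 (OS05G0343400), a positive regulator of rice defence and the most abundant of the other WRKY rows by its mean, gave 167 FPKM in the PGD1:Roc10 library and 177 FPKM in the NT library. Both of these abundant WRKY genes were thus close to level between the libraries. A WRKY28-like gene (OS06G0649000), annotated after a member of the same subgroup (IIa) as WRKY62 and WRKY76, was below the minimum, at 0.626 FPKM in PGD1:Roc10 leaves and 0.232 FPKM in NT leaves. OS02G0181300, described in the table only as similar to a WRKY factor, gave 30.8 FPKM in the PGD1:Roc10 library and 32.4 FPKM in the NT library.

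The other WRKY rows with the largest differences had low values in NT, as WRKY62 did. The WRKY17-like OS03G0335200 gave 8.69 FPKM in PGD1:Roc10 leaves and 0.103 FPKM in NT leaves, and the WRKY19-like OS05G0571200 gave 4.18 FPKM in the PGD1:Roc10 library and 0.299 FPKM in the NT library. A WRKY50-like gene on chromosome 11 (OS11G0117600, 794802 to 795540) gave 12.5 FPKM in PGD1:Roc10 leaves and 1.20 FPKM in NT leaves. Another WRKY-domain gene close to it (OS11G0117400, 782470 to 783620), whose locus is shared with another measured row, gave 3.73 FPKM in the PGD1:Roc10 library and 0.647 FPKM in the NT library. The ends of chromosomes 11 and 12 are duplicated in rice, so reads of such genes can be divided between near-identical copies. The fifth, WRKY10 (OS05G0537100), gave 9.51 FPKM in PGD1:Roc10 leaves and 2.75 FPKM in NT leaves. The WRKY56-like OS01G0842801 was the 1 lower row, at 0.282 FPKM in the PGD1:Roc10 library and 1.97 FPKM in the NT library.

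**Figure D2:**
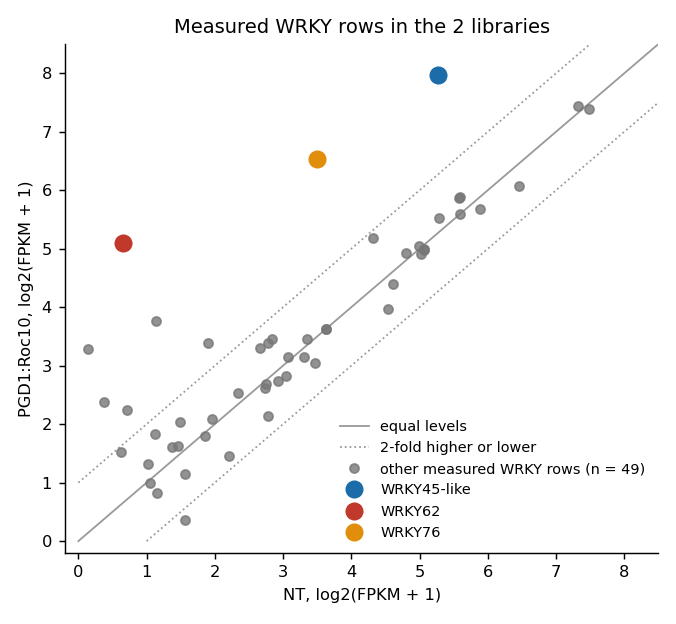
Level of each of the 52 measured WRKY rows, as log2(FPKM + 1), in the PGD1:Roc10 library (vertical axis) and the NT library (horizontal axis). The solid line marks equal levels and the dotted lines a 2-fold difference. The WRKY45-like gene, WRKY62 and WRKY76 lie above the upper dotted line, together with 5 other rows that all have lower levels in PGD1:Roc10 than these 3.

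WRKY76 and WRKY62 are adjacent genes. Their loci are 15212 bases apart with no coding row between them, and a RefSeq gene table of another assembly (ASM3414082v1), used here for gene order only, also has 0 genes between WRKY76 and WRKY62. The measured rows around the pair and around the WRKY45-like gene had smaller differences than the 3 genes. Since the 3 genes were chosen with their difference known, nothing is read from that comparison. Over the 5 coding rows on either side of each of the 3 genes, 20 rows other than the genes themselves, 14 were measured. Of these, 0 were at least 2-fold higher (beside 2.29% of all measured rows) and 0 at least 2-fold lower (beside 1.29%). Their differences ran from -0.39 to 0.55 with a median of 0.05. Cuffdiff, in the authors' deposited table, called 0 of the 20 significant, beside 0.474% of all tested rows called and higher and 0.105% called and lower. With so few rows, counts of 0 are near these shares.

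On the outer side of WRKY76, 861 bases away, a pentatricopeptide repeat gene (OS09G0417500), of a family that acts on organelle RNA, gave 0.536 FPKM in PGD1:Roc10 leaves and 0.708 FPKM in NT leaves. On the outer side of WRKY62, CIPK16, a kinase of the family that partners calcium sensors, gave 10.6 FPKM in the PGD1:Roc10 library and 14.2 FPKM in the NT library. It is 14292 bases from WRKY62. The highest difference among all these neighbours, 0.55, belonged to a conserved gene of unknown role (OS09G0417400), at 9.50 FPKM in PGD1:Roc10 leaves and 6.16 FPKM in NT leaves.

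Next to the WRKY45-like gene, on one side, lay a further WRKY-domain gene (OS05G0321900), 38429 bases away and listed at 0 in both libraries. On the other side, 4184 bases away, a rhodanese-like gene (OS05G0323100) gave 10.5 FPKM in the PGD1:Roc10 library and 8.67 FPKM in the NT library. SODA, a superoxide dismutase gene by its symbol, gave 88.0 FPKM in PGD1:Roc10 leaves and 75.7 FPKM in NT leaves. A short RNA row annotated to the MIR815 family shares the locus of the WRKY45-like gene and one of the MIR1122 family shares that of WRKY62, and both were listed at 0 in both libraries. No other measured row has the same locus as any of the 3 genes.

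**Figure D3:**
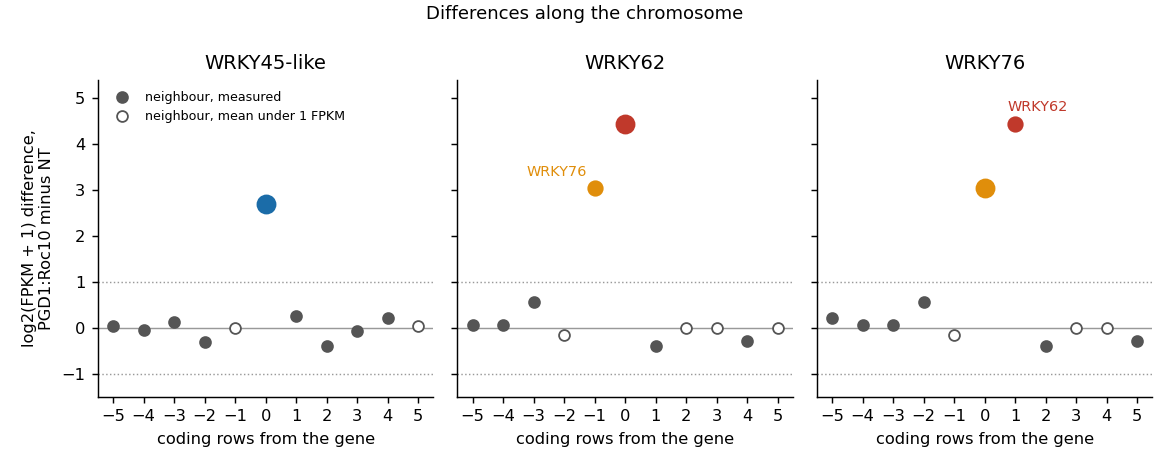
Difference in log2(FPKM + 1), PGD1:Roc10 minus NT, of the 5 coding rows on each side of the WRKY45-like gene, WRKY62 and WRKY76, by gene order. Open points had a mean below 1 FPKM and dotted lines mark 2-fold. Only the 3 genes themselves lie beyond the dotted lines, at 2.70, 4.44 and 3.04, and the measured neighbours lie between -0.39 and 0.55.

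The genes most like each of the 3 were taken as the nearest described coding rows by distance in log2(FPKM + 1) over the 2 libraries. Of 20435 such rows, 5 lay within 1 log2 unit of the WRKY45-like gene, 3 of WRKY62 and 4 of WRKY76. Nearest to the WRKY45-like gene, at 0.33 log2 units, was the RIR1a precursor gene (OS10G0569400), of a rice family known for its induction by bacteria. It gave 212 FPKM in the PGD1:Roc10 library and 31.7 FPKM in the NT library. A RING-type zinc finger gene (OS06G0125800, 0.46 units, locus shared with another measured row) gave 190 FPKM in PGD1:Roc10 leaves and 44.5 FPKM in NT leaves. The third, similar to the maize EGG APPARATUS-1 gene (OS07G0605400, 0.47 units), gave 276 FPKM in the PGD1:Roc10 library and 51.5 FPKM in the NT library.

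Nearest to WRKY62, at 0.31 units, was an acetyltransferase-like gene (OS10G0503300), with 27.9 FPKM in PGD1:Roc10 leaves and 0.805 FPKM in NT leaves. A calmodulin binding protein-like gene (OS08G0360300, 0.59 units) gave 26.0 FPKM in the PGD1:Roc10 library and 0.123 FPKM in the NT library. An EF-hand gene, of a calcium-binding family (OS03G0812400, 0.83 units), gave 59.2 FPKM in PGD1:Roc10 leaves and 0.710 FPKM in NT leaves. Like WRKY62, all of these were below 1 FPKM in NT, which the choice by nearness to WRKY62 favours.

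Nearest to WRKY76, at 0.44 units, was a late embryogenesis abundant repeat gene (OS01G0705200), with 68.5 FPKM in the PGD1:Roc10 library and 9.32 FPKM in the NT library. A 2OG-Fe oxygenase-like gene (OS10G0536400, 0.82 units, locus shared with another measured row) gave 56.9 FPKM in PGD1:Roc10 leaves and 14.5 FPKM in NT leaves. The acidic class III chitinase gene OsChib3a (OS01G0660200, 0.84 units), whose product degrades chitin of fungal walls, gave 71.4 FPKM in the PGD1:Roc10 library and 18.2 FPKM in the NT library. With 2 libraries, such likeness describes a shared level and difference and nothing else.

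Genes around the WRKY45 pathway were examined as lists by role. For salicylate perception and the TGA factors with which NPR1 acts, 10 matched rows were all measured. The NPR1-like gene OS01G0194300 was the 1 that was at least 2-fold higher (10% of the list, beside 2.29% of all measured rows), at 11.7 FPKM in PGD1:Roc10 leaves and 4.78 FPKM in NT leaves, with q = 0.182 and no call in the authors' deposited table. Under a scaling that makes the FPKM totals of the libraries equal, it was below 2-fold. The most abundant member, the HBP-1b-like bZIP gene OS07G0687700, gave 64.3 FPKM in the PGD1:Roc10 library and 71.1 FPKM in the NT library. The median of the list was 0.06, beside -0.01 for all measured rows. It took in 4 GATA factors and an argonaute by the spelling of their names, and without them 1 of 5 was 2-fold higher.

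At the entry to phenylpropanoid and salicylate synthesis, 1 of 6 measured rows was at least 2-fold higher (16.7%, beside 2.29% of all measured rows) and 0 were 2-fold lower (beside 1.29%), with a median of 0.14. That row, a phenylalanine ammonia-lyase-like gene (OS04G0518400), gave 18.5 FPKM in PGD1:Roc10 leaves and 2.51 FPKM in NT leaves, and the authors' deposited table has it called at q = 0.0209, where 0.474% of all tested rows were called and higher. The most abundant of the 6, OS02G0626400, also similar to phenylalanine ammonia-lyase, gave 114 FPKM in the PGD1:Roc10 library and 106 FPKM in the NT library. The row named PAL by symbol alone, added after the values were seen, gave 234 FPKM in PGD1:Roc10 leaves and 309 FPKM in NT leaves. The abundant members of this enzyme family thus did not share the large difference of OS04G0518400.

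Pathogenesis-related genes are the usual readout of salicylate-dependent defence. Of 32 measured rows 1 was at least 2-fold higher (3.12%, beside 2.29% of all measured rows) and 2 were 2-fold lower (6.25%, beside 1.29%), and the median was -0.18. A PR1a-like gene (OS07G0129300) gave 5.98 FPKM in the PGD1:Roc10 library and 0.129 FPKM in the NT library, whereas another PR1a-like row (OS07G0129200) was below the minimum, at 0.844 FPKM in PGD1:Roc10 leaves and 0.655 FPKM in NT leaves. The lower rows were a thaumatin gene (OS12G0630200), at 0.666 FPKM in the PGD1:Roc10 library and 10.5 FPKM in the NT library, and a PRB1-2-like gene (OS01G0382400), at 21.3 FPKM in PGD1:Roc10 leaves and 72.5 FPKM in NT leaves. OS07G0129300 met the minimum through its PGD1:Roc10 value and OS12G0630200 through its NT value. The authors' deposited table called 0 of the 32, beside 0.474% of all tested rows called and higher and 0.105% called and lower. The most abundant row, the thaumatin gene OS12G0569500, gave 142 FPKM in the PGD1:Roc10 library and 136 FPKM in the NT library. Without the ERF factors and other rows taken in by spelling, 14 rows were measured, with the same 1 higher and 2 lower. These are 7.14% higher, beside 2.29% of all measured rows, and 14.3% lower, beside 1.29%. The median of the 14 was -0.30, and 5 of them had the higher value in PGD1:Roc10.

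Glutathione S-transferases, detoxifying enzymes some of which are known in rice to act downstream of WRKY45, had 3 of 28 measured rows at least 2-fold higher (10.7%, beside 2.29% of all measured rows) and 0 lower (beside 1.29%), with a median of 0.11. GST 30 (OS10G0531400) gave 77.2 FPKM in PGD1:Roc10 leaves and 24.2 FPKM in NT leaves. The GST 28-like OS01G0949750 gave 22.7 FPKM in the PGD1:Roc10 library and 8.07 FPKM in the NT library. The GST 23-like OS09G0467200 gave 228 FPKM in PGD1:Roc10 leaves and 93.1 FPKM in NT leaves and was the 1 row of the list called in the authors' deposited table, with q = 0.0432, beside 0.474% of all tested rows called and higher. The most abundant row by mean, the GST 19-like OS07G0468100, gave 192 FPKM in the PGD1:Roc10 library and 206 FPKM in the NT library.

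Genes of the diterpenoid phytoalexins, antimicrobial compounds whose synthesis WRKY62 and WRKY76 are known to influence, were barely expressed in either library. Of 14 matched rows 2 were measured, and neither differed 2-fold (beside 2.29% of all measured rows higher and 1.29% lower). KSL5, the higher of these, gave 2.86 FPKM in PGD1:Roc10 leaves and 2.17 FPKM in NT leaves. The momilactone pathway genes KSL4 and CYP99A3 were below 1 FPKM in both libraries, KSL4 at 0.0608 FPKM in the PGD1:Roc10 library and 0.0125 FPKM in the NT library. The bHLH gene OS01G0196300 was listed at 0 for PGD1:Roc10, against 0.106 FPKM for NT. With 4 genes named by symbol alone added, CPS2 at 5.59 FPKM in PGD1:Roc10 leaves and 3.37 FPKM in NT leaves was the third measured row.

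The MAP kinase cascade, through which WRKY45 protein is known to be phosphorylated, had 0 of 11 measured rows at least 2-fold higher or lower. Of all measured rows, 2.29% were higher and 1.29% lower, so with so few rows a count of 0 is near that share. The median was -0.015. The most abundant of the 11, an MKK4-like gene (OS06G0191300), gave 50.9 FPKM in the PGD1:Roc10 library and 60.4 FPKM in the NT library. With kinase genes named by symbol alone added, 0 of 24 differed 2-fold, also near the share over all measured rows. The most abundant was MPK8, at 77.6 FPKM in PGD1:Roc10 leaves and 82.3 FPKM in NT leaves.

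**Figure D4:**
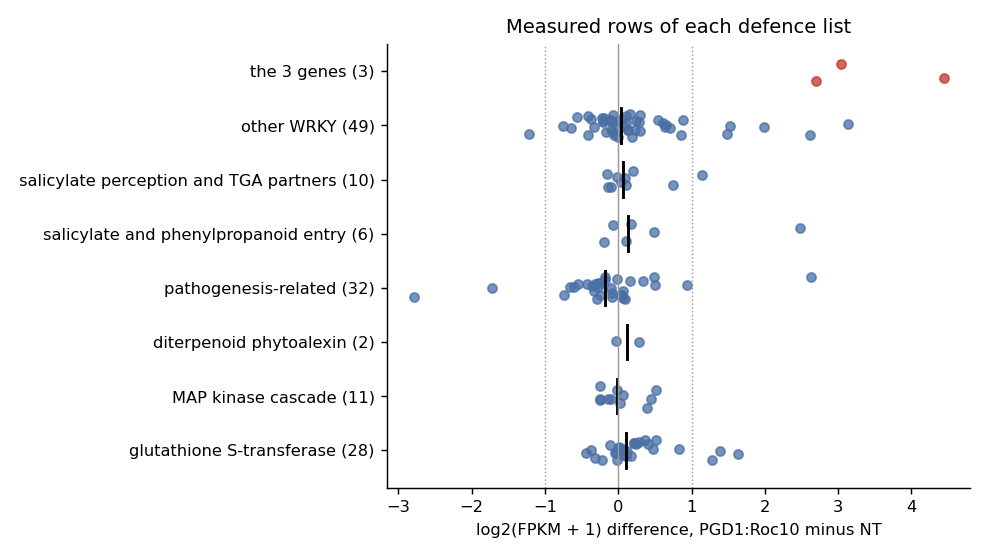
Difference in log2(FPKM + 1), PGD1:Roc10 minus NT, of the WRKY45-like gene, WRKY62 and WRKY76 (top) and of the measured rows of each defence list, with the number of rows in brackets. Each point is 1 row, black bars are list medians and dotted lines mark 2-fold. All list medians lie between -0.18 and 0.14, and single rows in 5 of the 7 lists lie beyond the dotted lines.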

How the data were processed

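Reads were aligned with TopHat 2.0.12 to IRGSP-1.0 with gene models of Ensembl Genomes release 23, and FPKM values were made with Cufflinks and Cuffdiff 2.2.1, per the file headers. Cuffdiff and this build also stand in the submitters' processing notes. How Cuffdiff scaled the libraries and treated strand is not given in the sources used here. Deposited p-value and q-value columns of the authors come from Cuffdiff on 1 library per group and were copied, not recomputed. The log2 fold changes in the authors' shorter deposited sheet were not used. Deposited read totals gave the library depth. FPKM carries no count, so the depth of a single gene is unknown and no interval is given. The length column deposited beside each row equals the genomic span of the locus.

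Columns were assigned to groups through the library codes in the labels. Differences are log2(FPKM + 1), PGD1:Roc10 minus NT, which understates low genes, and rows with a mean of at least 1 FPKM are called measured. No test was made, since each group has 1 library. The 3 genes and the lists were chosen with earlier results of these data known. Genes are named by rule: the 3 genes, the 5 coding rows on each side, the 3 nearest rows in level, and of each of 7 lists up to 4 rows at least 2-fold different and the most abundant row. The rule also named OS06G0649000 and OS02G0181300, whatever their values. Any other gene was named after its values were seen. The counting was tested on simulated data. Alternatives were other pseudocounts, scalings, filters, fold thresholds and corrected lists. Python 3.11.15, NumPy 2.4.6, pandas 2.3.3 and matplotlib 3.10.9 were used.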

Additional observations from a re-analysis of the deposited data

How the results depend on the processing

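Under the 7 other pseudocounts and scalings, the log2 difference was 2.49 to 2.73 for the WRKY45-like gene, 2.77 to 5.64 for WRKY62 and 2.66 to 3.14 for WRKY76. The direction of the 3 genes could not change. A pseudocount added to both libraries keeps the sign, and the scalings multiplied PGD1:Roc10 values by 0.863 to 1.02, too little to reverse such ratios. The kept direction is thus no support. No paired analysis was possible because each group has 1 library. Scaling to the same total FPKM moved the median of all measured rows to -0.20, and the other scalings moved it by less than 0.1. Under that scaling 5 of the 7 list medians changed sign, to -0.10 for other WRKY rows, -0.13 for salicylate perception, -0.062 for phenylpropanoid entry, -0.010 for diterpenoid phytoalexins and -0.094 for glutathione S-transferases, all above the -0.20 of all measured rows, while the pathogenesis-related median was -0.39 and that of the MAP kinase cascade -0.22.

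With a pseudocount of 0.1, WRKY62 differed by 5.64, and the ranks by difference among all measured rows became 202 for the WRKY45-like gene, 78 for WRKY62 and 170 for WRKY76, in place of 106, 44 and 86. Among coding rows, a comparison added after the data were seen, they became 142, 32 and 111, in place of 62, 17 and 45. Rows 2-fold lower were then 483 in all, other WRKY rows 2-fold lower 2, and pathogenesis-related rows 2-fold higher 2, as also with 0.5. With a pseudocount of 5, WRKY62 differed by 2.77, the WRKY45-like gene ranked 49 and WRKY76 47 (among coding rows 23 and 21), 214 rows were 2-fold higher and 100 lower, 2 other WRKY rows were higher and 0 lower, and 0 salicylate perception rows were higher, as also under the same-total scaling. With a minimum mean of 5 FPKM, 249 rows were higher and 138 lower, other WRKY rows gave 2 higher and 0 lower, and pathogenesis-related rows 0 higher. At 1.5-fold, 1122 rows were higher and 856 lower, other WRKY rows gave 11 and 3, salicylate perception rows 2 higher, and pathogenesis-related rows 2 higher and 5 lower. At 4-fold, 182 rows were higher and 88 lower, other WRKY rows gave 2 and 0, salicylate perception rows and glutathione S-transferases 0 higher, and pathogenesis-related rows 1 lower. Among rows of at least 1 FPKM in NT, a limit set after the data were seen, 2 other WRKY rows were higher, so that 3 of the 5 rest on lower NT values. The fold thresholds and the stricter filter change these counts by construction, and the cause of the other moves was not tested. In all, 213 of 253 counts and ranks stayed within 1.5 times, and 19 of 21 differences of the 3 genes and all 93 medians within 0.585 log2 units, a limit under which small medians can still change sign, as 10 of 84 list medians did. Counts of 1 to 3 rows and NT values below 1 FPKM, such as that of WRKY62, limit these statements, beside the single library per group.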
